A study of Rattus norvegicus with 6 samples.

Results

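Gcg, which encodes glucagon, was examined with 4 genes for carrier and structural proteins that islet alpha cells transcribe beside it, namely Gc, Ttr, Rbp4 and Cryba2. The 5 genes were chosen from 32883 genes in the count matrices because their levels differed between classes of islet cells in these same libraries, so their levels by class are given as a description without a test. Their identifiers in the files are ENSRNOG00000005498 (Gcg), ENSRNOG00000003119 (Gc), ENSRNOG00000016275 (Ttr), ENSRNOG00000015518 (Rbp4) and ENSRNOG00000017996 (Cryba2). Single cells of an islet preparation were sequenced from 6 male Wistar rats in 3 groups of 2. Young rats were taken at 2 months on a normal diet, old rats were kept on a normal diet from 2 to 20 months, and HFHF-old rats received a high-fat high-fructose (HFHF) diet from 2 to 20 months. No rat carried a transgene or an engineered allele, and no drug is named for any group. The values are counts of unique molecular identifiers (UMIs), each of which stands for 1 captured RNA molecule.

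Alpha cells secrete glucagon, which raises blood glucose by driving glucose output from the liver. Preproglucagon is cut to glucagon in alpha cells by the convertase encoded by Pcsk2, with the help of the chaperone encoded by Scg5. Gc encodes the vitamin D binding protein of plasma, which also binds actin set free from cells. Ttr encodes transthyretin, a plasma carrier of thyroid hormone, and Rbp4 encodes retinol binding protein, which travels in plasma bound to transthyretin and delivers retinol. All 3 are best known as products of the liver. Cryba2 encodes a beta crystallin, a family named for the structural proteins of the eye lens. PP cells, which secrete pancreatic polypeptide, share part of their regulators with alpha cells.

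The bases before the annotated start of 4 of the genes are shown so that the start regions of genes detected together in alpha cells can be set side by side. The windows were taken from RefSeq on the build GRCr8, in which 5 of 5 genes were matched by symbol and 0 of 5 by Ensembl identifier, and they cover 250 bases 5′ of each start in the direction of the gene. Capitals mark matches, on either strand and without overlap between motifs, to TATAAA (the core of a TATA box), GTTAAT (a core site of the HNF1 factors), TGTTTAC (a forkhead motif) and TGCTGA (a core site of the Maf factors).
Gcg (chr3:67531534-67531783, minus strand): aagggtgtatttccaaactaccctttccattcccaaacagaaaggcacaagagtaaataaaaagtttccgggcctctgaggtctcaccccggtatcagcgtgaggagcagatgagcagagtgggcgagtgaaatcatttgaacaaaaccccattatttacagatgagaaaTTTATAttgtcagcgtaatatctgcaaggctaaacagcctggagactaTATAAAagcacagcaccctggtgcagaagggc
Gc (chr14:18916005-18916254, plus strand): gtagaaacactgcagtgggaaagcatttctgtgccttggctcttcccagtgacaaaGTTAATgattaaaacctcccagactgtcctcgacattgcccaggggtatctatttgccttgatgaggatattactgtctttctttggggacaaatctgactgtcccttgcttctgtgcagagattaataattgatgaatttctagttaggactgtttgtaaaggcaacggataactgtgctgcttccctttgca
Rbp4 (chr1:245313552-245313801, minus strand): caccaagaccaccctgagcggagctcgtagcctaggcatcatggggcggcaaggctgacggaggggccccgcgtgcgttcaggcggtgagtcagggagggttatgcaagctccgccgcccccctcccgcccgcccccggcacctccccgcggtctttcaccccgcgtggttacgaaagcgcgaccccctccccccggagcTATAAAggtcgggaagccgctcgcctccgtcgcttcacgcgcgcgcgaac
Cryba2 (chr9:83899132-83899381, minus strand): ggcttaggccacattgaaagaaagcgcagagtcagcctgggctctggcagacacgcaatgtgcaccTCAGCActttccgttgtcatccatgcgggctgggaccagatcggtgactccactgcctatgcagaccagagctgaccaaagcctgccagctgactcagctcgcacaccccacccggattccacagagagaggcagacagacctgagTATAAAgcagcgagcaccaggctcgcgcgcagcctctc
TATAAA was found 2 times before Gcg, beginning 80 and 32 bases before the start, and 1 time each before Rbp4 (50 bases) and Cryba2 (38 bases). It occurs in 12.9% of 33469 windows of this length. GTTAAT was found 1 time, 194 bases before the start of Gc, and occurs in 6.45% of windows. TGCTGA was found 1 time, 184 bases before the start of Cryba2, and occurs in 15.1% of windows. TGTTTAC, which 3.21% of windows hold, was not found in these windows. The window of Ttr is not shown and held no match to any of the 4 motifs. The matches are letters in the reference and were not measured as binding.

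The deposited matrices held 78024 barcodes, with 77387928 to 166875258 UMIs per library, and 75201 cells were kept after the filters. A cell was placed in an islet class by its most abundant hormone transcript, if that hormone reached 5% of the cell's UMIs. This gave 2125 alpha (Gcg), 1404 PP (Ppy and Pyy), 6155 beta (Ins1 and Ins2) and 53 delta cells (Sst). Alpha cells numbered 550 and 597 in the young rats, 129 and 816 in the old rats and 30 in HFHF-old rat 1. HFHF-old rat 2 had 8 islet cells, of which 3 were alpha cells, and is left out of the islet results, so HFHF-old stands for 1 rat there. PP cells numbered 134, 457, 82, 668 and 63 in the same order, and the other classes were named from marker genes. Between any pair of libraries 20 to 69 barcodes were shared, at most 0.604% of the smaller library.

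Many islet barcodes were shallow or held a second hormone or digestive enzymes. Among alpha cells 710 of 2125 had under 2000 UMIs, and 432 had a second hormone or digestive enzymes at 5% of UMIs or more. Of these mixed cells 323 were in young rat 2. In the beta class 4310 of 6155 cells were mixed, 3015 of 3329 in young rat 2, 375 of 536 in old rat 1 and 594 of 785 in HFHF-old rat 1. Doublets, free RNA and cells that make 2 hormones cannot be told apart by this rule. Results are therefore also given for deep, unmixed cells, which had at least 2000 UMIs and both the second hormone and the enzymes under 5%. This set was chosen after the data were seen and kept 1179 alpha (55.5%), 647 PP (46.1%) and 1124 beta cells (18.3%). Doublets were not removed in any other way.

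The alpha label was checked against marker genes. Irx1, Irx2, Tmem27 and Etv1 were detected in the alpha cells of each of the 5 rats. Irx1, an alpha cell transcription factor, had a median of 0.764 UMIs per 10000 over the 5 rats in alpha cells, 0.0413 in PP cells and 0.0110 in beta cells. PP cells also had little Irx2 (0.0516 against 0.495 in alpha cells), while Tmem27 was at 13.1 in alpha and 19.5 in PP cells, against 1.52 in beta cells. The digestive enzyme markers summed to 24.9, 238, 50.5, 15.8 and 93.4 UMIs per 10000 in the alpha cells of young rats 1 and 2, old rats 1 and 2 and HFHF-old rat 1, and to 15.2, 42.5, 24.3, 10.2 and 83.4 in the deep, unmixed ones. The part of this enzyme RNA in the results below was not tested.

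Gcg was the most abundant hormone transcript by construction of the class. In alpha cells it took 2274, 3430, 4280, 4226 and 2278 UMIs per 10000 in young rats 1 and 2, old rats 1 and 2 and HFHF-old rat 1. Both old rats were above both young rats, and the HFHF-old rat was level with young rat 1. The class was cut on Gcg itself, so its level there is limited from below.

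Gcg was also found where it is not expected to be transcribed, and how much depended on the library. T and natural killer (T/NK) cells held 3.20, 11.2, 5.07 and 2.48 Gcg UMIs per 10000 in the young and old rats, and 0.379 and 0.0822 in the HFHF-old rats. PP cells held 41.5, 137, 12.7, 70.8 and 40.1, above the T/NK level in every rat. In the deep, unmixed PP cells Gcg was at 7.57, 12.0, 11.7, 6.65 and 7.001, beside 3.14, 10.9, 5.02, 2.24 and 0.374 in T/NK cells of at least 2000 UMIs. Some other non-islet classes held more Gcg than T/NK cells. Among their cells of at least 2000 UMIs the highest level was 7.22 in young rat 1 (macrophages), 31.8 in young rat 2 (acinar cells), 10.9 in old rat 1 (acinar cells), 3.11 in old rat 2 (macrophages) and 0.631 in HFHF-old rat 1 (B cells), so that PP cells lay above every one of them in 4 of 5 rats and below 5 of these classes in young rat 2. In beta cells Gcg was at 1.48, 409, 54.2, 83.4 and 1.28 UMIs per 10000, and at 1.10, 49.1, 7.91, 13.4 and 0.227 in the deep, unmixed ones. Most Gcg UMIs of the PP class lay in mixed or shallow barcodes in both young rats, old rat 2 and HFHF-old rat 1. A PP or beta cell with Gcg at 5% of UMIs or more counts as mixed. The deep, unmixed set thus limits Gcg from above in these 2 classes, and part of its lower level there follows from this rule.

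The median share of Gcg in a single alpha cell was 19.2 and 20.3% in the young rats, 40.5 and 30.6% in the old rats and 19.4% in the HFHF-old rat. In deep, unmixed alpha cells it was 21.3 and 36.7% in the young rats, 43.2 and 44.7% in the old rats and 21.7% in the HFHF-old rat. Young rat 2 moved most between the 2 sets, and its deep cells lay nearer to the old rats than to young rat 1. Cells with at least 30% of their UMIs from Gcg made up 15.8, 35.2, 73.6, 51.0 and 23.3% of alpha cells, and 18.5, 68.9, 86.7, 87.8 and 33.3% of the deep, unmixed ones. The deep set held 21 alpha cells in the HFHF-old rat.

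**Figure D1:**
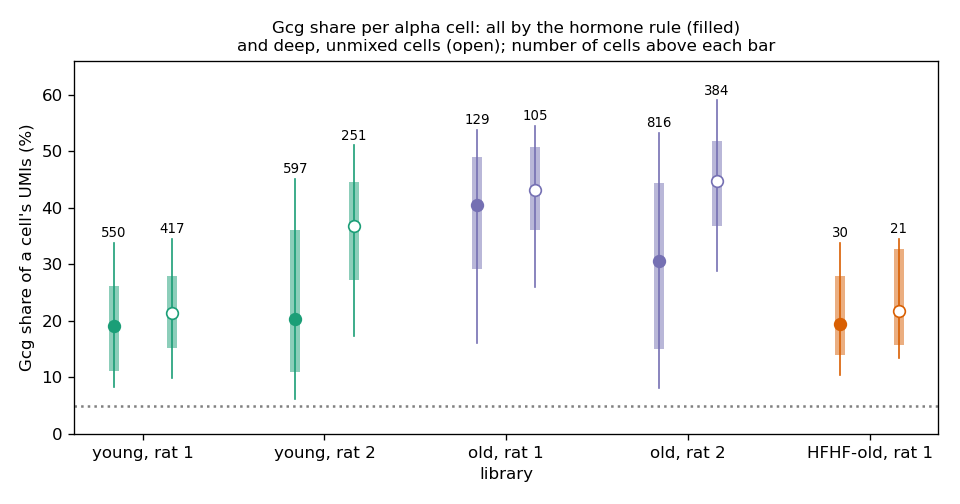
Gcg share of the UMIs of single alpha cells (vertical axis, %) by rat (horizontal axis), with the median as a point, the 25th to 75th percentile as a thick bar, the 10th to 90th percentile as a line and the 5% limit dotted. Filled points are all alpha cells and open points the deep, unmixed ones, where the medians of young rat 2 and both old rats lie between 36.7 and 44.7% and those of young rat 1 and the HFHF-old rat at 21.3 and 21.7%.

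Gc, the vitamin D carrier, marked alpha and PP cells alike. It was at 11.4 and 14.6 UMIs per 10000 in alpha cells of the young rats, 15.5 and 13.8 in the old rats and 24.5 in the HFHF-old rat. In PP cells it was at 13.1, 20.1, 19.7, 16.1 and 19.6. The ranges of the 2 classes overlapped, and within rats PP cells were higher in the young and old rats and lower in the HFHF-old rat. Beta cells held 0.947 to 2.75 and the delta cells of the young rats 1.51 and 4.82, below all alpha and PP values, and no class outside the islet exceeded 0.372 in any rat. When each deep, unmixed cell was thinned to 2000 UMIs, a Gc UMI was expected in 85.9 to 98.1% of alpha, 87.2 to 95.9% of PP and 11.5 to 28.0% of beta cells, against 0.0641 to 1.91% of T/NK cells. Without thinning the shares were 98.01 to 100% in alpha and 0.252 to 7.06% in T/NK cells.

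Rbp4, the retinol carrier, was also found in both alpha and PP cells. Its level was 3.55, 4.46, 4.16, 5.11 and 3.65 UMIs per 10000 in alpha cells and 3.82, 6.51, 4.98, 5.75 and 4.08 in PP cells. The ranges overlapped, but within each of the 5 rats PP cells were higher. Per UMI not of a hormone gene the alpha level was 0.845, 0.687, 0.991, 0.862 and 0.858 of the PP level, and 1.04 in the deep, unmixed cells of old rat 1, where 1 cell held 143 of the 1189 Rbp4 UMIs of all alpha cells. Beta cells separated from both, at 0.0218, 1.35, 0.140, 0.232 and 0.0269. The high value was that of young rat 2, and in deep, unmixed beta cells the range was 0.0118 to 0.190. The young delta cells held 0.973 and 1.06. Thinned to 2000 UMIs, 46.8 to 59.9% of deep alpha cells, 48.1 to 68.9% of PP cells and 0.358 to 7.34% of beta cells were expected to show Rbp4, against 0.0174 to 0.896% of T/NK cells.

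Rbp4 was not restricted to the islet. Fibroblasts held 0.199 to 0.450 UMIs per 10000 in all 6 rats, above T/NK cells in the same library (0.000764 to 0.0436). Mesothelial cells held 0.277 in young rat 1, 1.10 and 4.04 in the old rats and 0.201 in HFHF-old rat 1. These last values rest on 6, 37, 70 and 4 UMIs in 18, 29, 23 and 11 cells.

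Cryba2, the beta crystallin, was higher in alpha than in PP and beta cells of each of the 5 rats. It was at 1.05, 2.08, 1.84, 2.36 and 0.634 UMIs per 10000 in alpha cells, which stands for 655, 1321, 527, 1594 and 37 UMIs. The HFHF-old rat was the lowest and lay below both old and both young rats. PP cells held 0.162 to 0.418 and beta cells 0.150 to 0.359, with overlapping ranges, and every alpha value was above them. Outside the islet it was at most 0.0533, in B cells of young rat 2. Relative to PP cells of the same rat, and per UMI that was not of a hormone gene, the alpha level was 5.25, 4.98, 10.1, 8.57 and 3.76 times as high. Relative to beta cells it was 2.64, 5.68, 6.01, 4.83 and 2.37 times as high, and 1.69 times in the deep, unmixed cells of the HFHF-old rat. On this scale the ranges of alpha and beta cells overlapped between rats, with alpha cells of the HFHF-old rat at 0.864 and beta cells of old rat 2 at 0.892.

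Ttr, the thyroid hormone carrier, was sparse. It was at 0.302, 0.307, 0.486, 0.270 and 0.377 UMIs per 10000 in alpha cells, from 188, 195, 139, 182 and 22 UMIs. The groups overlapped. The UMIs lay in 80, 75, 46, 115 and 10 cells, and the 10 alpha cells with most Ttr held 47.9, 50.3, 60.4 and 25.3% of them in the young and old rats. Thinned to 2000 UMIs, 4.43 to 7.64% of deep alpha cells were expected to show Ttr, against at most 0.0570% of T/NK cells.

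In PP cells Ttr was at 0.0570 and 0.0337 UMIs per 10000 in the young rats, 0.217 and 0.197 in the old rats and 0.0718 in the HFHF-old rat, from 10, 14, 21, 100 and 8 UMIs. The old rats lay above the other 3. In old rat 1, 9 of the 21 UMIs were in 1 cell, while in old rat 2 the 100 UMIs were spread over 77 of 668 cells. In the deep, unmixed PP cells the values were 0.0536, 0.0306, 0.232, 0.198 and 0.0571. Of the 21 Ttr UMIs in the deep, unmixed PP cells of old rat 1, 12 were in the 2 cells with 1 to 5% of their UMIs from Gcg and 9 in the 37 cells under 0.1%, where the level was 0.159 UMIs per 10000 non-hormone UMIs. In old rat 2, 77 of the 85 UMIs were in the 253 cells under 0.1% Gcg, at 0.366. The 8 ductal markers, a class that also held Ttr, summed to 2.00 and 2.33 UMIs per 10000 in PP cells of the young rats and 1.53 and 1.91 in those of the old rats.

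Ductal cells, of which 37, 10, 70 and 207 were found in the young and old rats, held Ttr at 0.181, 8.11, 0.250 and 0.456 UMIs per 10000. The high value of young rat 2 came from 71 UMIs, of which 59 were in 1 cell. Beta cells held 0.0436 and 0.0644 in the young rats, 0.00159 and 0.0149 in the old rats and 0.0121 in the HFHF-old rat, where old rat 1 had 1 UMI in 536 cells. Both old rats lay below both young rats there, the reverse of PP cells. In the deep, unmixed beta cells Ttr was at 0.0445, 0.0181, 0, 0.00723 and 0.0132, and 0 UMIs in the 117 cells of old rat 1 leaves counting noise large.

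Across all 66 sums of a class in a rat, the genes whose level was most like that of Gcg were ranked by Pearson's r among 9968 genes, with hormone UMIs left out of the totals. Irx1 led with r = 0.829 and was followed by Cryba2 (0.817), Gc (0.815), Resp18 (0.814), LOC108348172 (0.814), Edn3 (0.813), Tmem27 (0.807), Ppy (0.801), Pyy (0.782) and Scg5 (0.781). Rbp4 (0.649) ranked 153 and Ttr (0.630) ranked 187. In deep, unmixed cells, over 65 sums and 9980 genes, Irx1 again led (0.811), Gc ranked 4 (0.743), Cryba2 ranked 6 (0.741), Pyy ranked 18, Ttr ranked 94 (0.616) and Rbp4 ranked 196 (0.570), and Ppy was not among the first 30. The sums share libraries and free RNA, and Ppy and Pyy, hormones of PP cells, are among the 10.

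Whether the 4 genes rose with the Gcg share from cell to cell was described within each rat, per 10000 UMIs that were not of hormone genes, since a larger Gcg share lowers all other shares. Non-hormone UMIs enter both sides on this scale, so a cell with few of them tends to be higher on both. How much this adds to a coefficient was not tested. Coefficients per 10000 of all UMIs were not computed for deep, unmixed cells. In deep, unmixed alpha cells Spearman's coefficient with the Gcg share was 0.32, 0.49, 0.38, 0.30 and 0.32 for Gc, over 417, 251, 105, 384 and 21 cells. For Cryba2 the coefficient was 0.27, 0.26, 0.34, 0.33 and 0.33. For Rbp4 it was 0.24, 0.14, 0.28, 0.24 and 0.30. All of these values were above 0, and those of Ttr were 0.06, 0.23, 0.08, 0.06 and 0.16. The cells of a rat share its library. The number of non-hormone UMIs of a cell had a coefficient of -0.04, 0.21, -0.10, -0.04 and 0.30 with the Gcg share. That number leaves out Gcg UMIs, so it is not the full depth of the cell, whose coefficient was not computed.

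Over all alpha cells the values of Gc were higher, at 0.47, 0.67, 0.49, 0.67 and 0.36. In the HFHF-old rat those of Rbp4 (0.22), Ttr (0.07) and Cryba2 (0.31) were lower than in deep, unmixed cells. Cryba2 was also lower in old rat 1 (0.334 against 0.339). Per 10000 of all UMIs, the values over all alpha cells were 0.33, 0.56, 0.06, 0.44 and 0.07 for Gc. For Rbp4 they were 0.37, 0.38, 0.17, 0.47 and 0.09 on that scale. The number of non-hormone UMIs had a coefficient of 0.29, 0.56, 0.30, 0.57 and 0.20 with the Gcg share over all alpha cells. The part of depth in these values was not tested. As levels, Cryba2 in deep, unmixed alpha cells of young rat 1 was at 0.482 UMIs per 10000 non-hormone UMIs where Gcg was at 5 to 10% of UMIs, 1.09 at 10 to 20%, 1.61 at 20 to 30% and 2.02 at 30% or more. Young rat 2 went from 2.13 at 10 to 20% to 4.56 at 30% or more. Old rat 2 had 2.23 at 20 to 30% and 5.36 at 30% or more. The lower bins of the old rats and every bin of the HFHF-old rat held under 20 cells.

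The rats also differed in the group with the most Gcg, which has no upper limit. Among cells with at least 30% Gcg, Cryba2 was at 2.02, 4.56, 3.48, 5.36 and 1.07 and Gc at 16.5, 28.8, 28.3, 27.3 and 37.3 UMIs per 10000 non-hormone UMIs, over 77, 173, 91, 337 and 7 cells. Young rat 1 was the lowest for Gc, and the HFHF-old rat was the lowest for Cryba2 and the highest for Gc. Rbp4 in these cells was at 5.18, 8.28, 6.69, 10.4 and 4.71. The Gcg share within this group was not equal between rats, as the 90th percentile over all deep, unmixed alpha cells was 34.5, 51.0, 54.5, 59.0 and 34.5%. The part of the Gcg share in these differences was not tested.

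**Figure D2:**
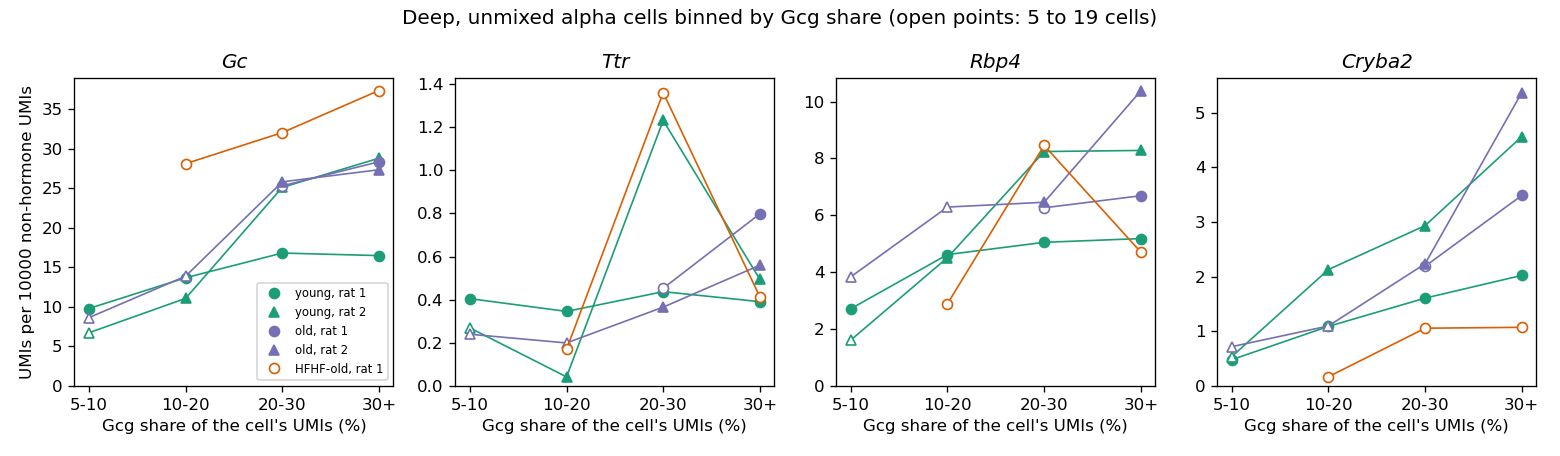
UMIs of each gene per 10000 non-hormone UMIs (vertical axes, from 0) in deep, unmixed alpha cells grouped by Gcg share (horizontal axes), 1 line per rat, with open points for 5 to 19 cells and smaller groups left out. Cryba2 is lowest in the lowest bin of each rat, as in young rat 1, where it goes from 0.482 to 2.02, while Ttr shows no steady course.

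In PP cells the values of Gc, Rbp4 and Cryba2 were lower than in alpha cells of the same rat, and the difference between the classes was not tested. Spearman's coefficient of Gc with the Gcg share was -0.02, -0.43, 0.02, -0.18 and -0.08 in deep, unmixed PP cells and that of Rbp4 was -0.15, -0.35, -0.17, -0.14 and -0.22. For Cryba2 it was -0.04, -0.09, 0.15, -0.09 and -0.19, and for Ttr -0.14, -0.14, 0.24, 0.08 and -0.17. Gcg in these cells was low, as given above, and the rule for unmixed cells keeps it under 5% of UMIs. The number of non-hormone UMIs had a coefficient of -0.20, -0.68, -0.38, -0.25 and 0.17 with the Gcg share. At the class limit, the 75 cells just outside (Gcg at 4 to 5% of UMIs, all libraries) held 3.92 Gc, 1.71 Rbp4, 0.271 Cryba2 and 0.0388 Ttr UMIs per 10000, and the 94 alpha cells just inside (5 to 6%) held 4.37, 1.24, 0.574 and 0.0442.

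Groups were compared on UMIs summed per rat and class, with the quasi-likelihood test of edgeR and Benjamini-Hochberg adjusted p-values over all genes tested, and a gene was called at an adjusted p under 0.05 and a change over 1.5-fold. The question was whether age or the HFHF diet changed these genes in alpha and PP cells. None of the 5 genes was called in alpha, PP or beta cells in either comparison. In alpha cells 0 of 5 were called between old and young, where 0.015% of 13311 genes were, and 0 of 5 between HFHF-old and old, where 0.0301% were. At an unadjusted p under 0.05 there were 522 and 1041 genes in alpha cells, and DESeq2 called 23 and 30. The genes called were AC127784.2 and RT1-Bb, both higher in old, and Tnni3k, LOC286960, AC142181.2 and LOC683849, all higher in HFHF-old, named after their values were seen. The HFHF-old arm is 1 rat, which is assumed to vary like the rats of the other groups.

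For old against young in alpha cells all 5 log2 fold changes were above 0 and none passed the test. Gcg was at 0.89 (SE 1.20, adjusted p = 1.00 by edgeR), Cryba2 at 0.72 (SE 0.510), Ttr at 0.64 (SE 0.353), Rbp4 at 0.55 (SE 0.475) and Gc at 0.49 (SE 0.555), and the adjusted p of each was 1.00. Leaving out 1 rat at a time moved Cryba2 between 0.15 and 1.66, Gcg between 0.43 and 1.55, Rbp4 between 0.19 and 1.05 and Gc between 0.12 and 1.01, in each case from the value without young rat 1 to that without young rat 2. Ttr moved between 0.26 (without old rat 1) and 0.96 (without old rat 2). The median over all 13311 genes was -0.02. With library size in place of TMM scaling that median moved to -0.43.

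For HFHF-old against old in alpha cells Cryba2 had the lowest unadjusted p of the 5. The fold changes are of TMM-scaled sums, so they are not the ratios of the unscaled levels per 10000. With library size in place of TMM scaling the median log2 fold change over all genes moved from -0.07 to 0.60 in this comparison. It was at 1.84 and 2.36 UMIs per 10000 in the old rats and 0.634 in the HFHF-old rat, a log2 fold change of -2.42 (SE 0.741, adjusted p = 0.620 by edgeR). DESeq2 gave -2.42 with an adjusted p of 0.0105, and edgeR without the filter on low counts gave -2.46 with 0.0189. Its adjusted p lay between 0.0105 and 0.684 in the 15 alternatives. In this comparison DESeq2 left 12387 of 13311 genes without an adjusted p. Its adjusted p-values, also that of Gcg below, thus cover fewer genes than those of edgeR. In the thinned deep cells a Cryba2 UMI was expected in 25.9 and 35.3% of alpha cells of the old rats. The share was 17.4 and 35.0% in the young rats and 7.78% in the HFHF-old rat, where 21 cells were available.

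The remaining genes in that comparison were further from the threshold. Gcg had a log2 fold change of -1.58 (SE 1.57, adjusted p = 0.735 by edgeR), which DESeq2 put at an adjusted p of 0.0453. Rbp4 was at -1.03 (SE 0.615) and Ttr at -0.65 (SE 0.508), with adjusted p of 0.626 and 0.678. Gc was at 0.07 (SE 0.677, adjusted p = 0.986) on TMM-scaled sums and 0.74 with library size alone, the unscaled levels being 24.5 against 15.5 and 13.8 per 10000. Without the mixed cells Gc was at -0.02. Over the 15 alternatives the log2 fold change ranged from -2.85 to -1.73 for Cryba2, from -1.90 to -0.90 for Gcg, from -1.36 to -0.35 for Rbp4 and from -0.95 to 0.01 for Ttr.

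In PP cells Ttr stood out for old against young with a log2 fold change of 2.43 (SE 0.449), but its adjusted p was 0.251 by edgeR over 10968 genes, of which 0.0182% were called. Its log2 fold change stayed between 2.20 and 2.63 in the 16 alternatives, with adjusted p-values between 8.15e-04 and 1.00. Without the filter on low counts Ttr passed the threshold (adjusted p = 8.15e-04 by edgeR), where 90 of 17722 genes were called. It also passed without young rat 1, without young rat 2 and without old rat 1. Those fits leave 1 rat in the young or old group, and each called more genes than the main fit. In deep, unmixed PP cells the log2 fold change of Ttr was 2.63 with an adjusted p of 0.0649 by edgeR. The value for HFHF-old against old was -1.98 (SE 0.610, adjusted p = 0.742 by edgeR), and these 2 comparisons share the old rats.

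The other 4 genes showed smaller differences in PP cells. For old against young Gcg was at -0.85 (SE 0.980), which became 0.01 in deep, unmixed cells, Gc at 0.21 (SE 0.610), Rbp4 at 0.19 (SE 0.568) and Cryba2 at -0.16 (SE 0.488). For HFHF-old against old, where 0.0274% of genes were called, they were at -0.68 (SE 1.23), -0.30 (SE 0.757), -0.87 (SE 0.726) and -1.11 (SE 0.695). Called in PP cells were AC127784.2 and RT1-Bb, higher in old, AC142181.2 and LOC683849, higher in HFHF-old, and RT1-Bb, lower in HFHF-old. At an unadjusted p under 0.05 there were 355 and 643 genes.

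**Figure D3:**
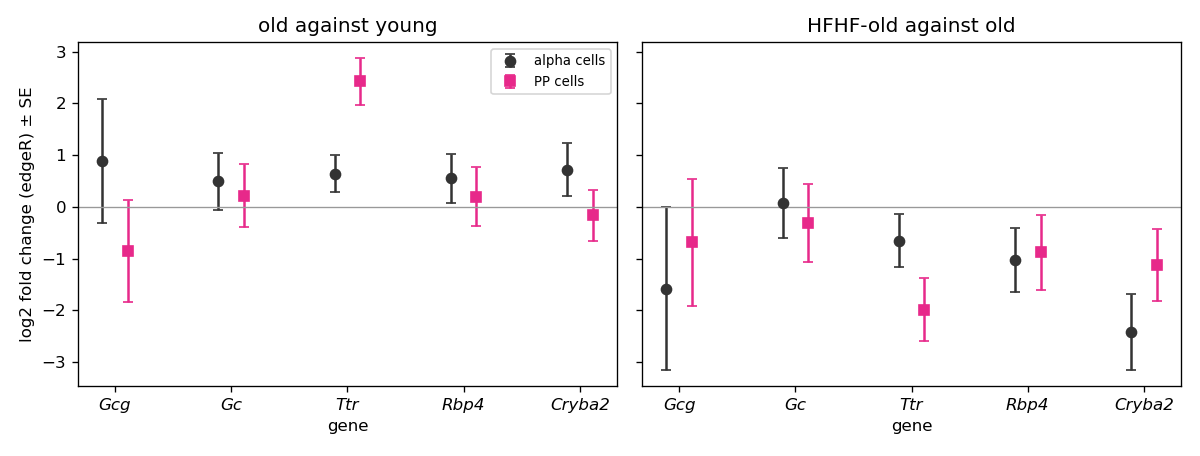
Log2 fold change of each gene by edgeR (vertical axis) with its standard error as a bar, in alpha cells (circles) and PP cells (squares), for old against young (left) and HFHF-old against old (right, 1 HFHF-old rat). The points farthest from 0 relative to their bars are Ttr in PP cells at 2.43 and -1.98 and Cryba2 in alpha cells at -2.42.

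The 5 genes were compared in beta cells as well, and 0% of 13058 genes were called in either comparison by edgeR, with 333 and 132 at an unadjusted p under 0.05 and 16 and 4 called by DESeq2. For old against young Ttr was at a log2 fold change of -2.25 (SE 0.897, adjusted p = 1.00 by edgeR), Rbp4 at -1.47 (SE 1.35) and Cryba2 at 0.22 (SE 0.491). Without young rat 2 Rbp4 was at 3.24. For HFHF-old against old they were at -0.38 (SE 1.14), -3.56 (SE 2.02) and -1.28 (SE 0.639). Gcg in beta cells was at -1.16 (SE 2.25) for old against young and -6.52 (SE 3.90) for HFHF-old against old, and Gc at -0.11 (SE 0.675) and -0.73 (SE 0.853). As given above, Gcg in T/NK cells was also lower in HFHF-old rat 1 than in the old rats, and many beta cells were mixed. The part of free RNA and mixed cells in the Gcg values of beta cells was not tested.

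The partners of these genes were looked at as lists, none of whose members were called in alpha or PP cells. Over all genes tested 0.015 and 0.0301% were called in alpha cells and 0.0182 and 0.0274% in PP cells. With so few calls, their absence from short lists says little about the lists. Of 21 genes for glucagon synthesis and alpha cell regulation 19 were tested in alpha cells. The most abundant were the convertase gene Pcsk2 (median over rats 38.0 UMIs per 10000), its chaperone gene Scg5 (23.2), the granule protein genes Scg2 (12.7), Chga (12.5) and Chgb (6.70) and the carboxypeptidase gene Cpe (9.19). The median log2 fold change of the 19 tested genes was -0.01 between old and young rats and -0.14 between HFHF-old and old rats, beside -0.02 and -0.07 over all genes. Pcsk1, the convertase that yields GLP-1, was at 0.0525 in alpha cells and 2.77 in beta cells.

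Genes for handling the cargo of the carriers were present in part. For thyroid hormone, the transporter gene Slc16a10 was at a median of 3.99 UMIs per 10000 in alpha, 3.65 in PP and 0.367 in beta cells, and the receptor genes Thrb and Thra were at 0.710 and 0.542 in alpha cells. For retinoids, Stra6, the receptor gene for retinol binding protein, had a median of 0 in alpha and PP cells. For vitamin D, the receptor gene Vdr was at 0.343 in alpha cells. Of 8, 19 and 7 genes in these lists 5, 10 and 5 were tested in alpha cells. At an unadjusted p under 0.05 for HFHF-old against old there were 0, 0 and 2 of them (Vdr and Cubn, named after their values were seen), beside 1041 of all 13311 genes, and 0 for old against young. In the glucagon synthesis list there was 1 of 19 for HFHF-old against old (Pou3f4, likewise named after its values were seen).

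Other crystallins were low in alpha cells, where 4 of 12 were tested and Cryz (0.0685) and Cryl1 (0.0629) were the most abundant by their medians. For old against young 1 of these 4 was at an unadjusted p under 0.05 (Cryba4, from 44 UMIs in all), beside 522 of 13311 genes. Of 5 genes for the receptors of glucagon and related peptides and for their breakdown 2 were tested in alpha cells, Gipr, a receptor gene, with a median of 0.270 and Dpp4, the gene of the peptidase that cuts incretins, with 0.0685. Gcgr, the glucagon receptor gene, had a median of 0 in alpha and 0.0938 in beta cells, and Glp1r had 0.00472 in alpha and 0.377 in beta cells.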

How the data were processed

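Cells of collagenase-digested, density-purified islets from 6 rats were sequenced with a 10x Genomics 3′ kit. The authors aligned reads and made the deposited UMI counts per gene and barcode with Cell Ranger. The file headers name version 5.0.0, while the authors' methods name another version. The submitters' processing notes name the build Rnor_6.0.

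Barcodes with at least 200 genes, at most 25% mitochondrial UMIs and a gene number outside the top 1% were kept. Islet classes followed the leading hormone at 5% of UMIs, acinar cells had enzymes at 20%, and other classes at least 3 of their 8 markers and 2 more than any other class. Of the cells 14.2% stayed unassigned. UMIs were summed per rat and class with at least 10 cells and tested with edgeR 4.0.16 (R 4.3.3; TMM, filterByExpr, glmQLFTest; all groups in 1 fit, no covariates). DESeq2 1.42.0 was an alternative. The SE of a log2 fold change is its size over the root of F. Shares at 2000 UMIs are exact expectations under sampling without replacement, and leave out shallower cells. Counts cover counting error only. The alpha and PP fits of old against young were tested on simulated data.

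The members, gene lists and rules were chosen with earlier results of these data known. Named were the 5 members, the 10 genes most like Gcg, up to 6 tested genes of each list by level in alpha cells with any called. Other called genes were named after their values were seen. Alternatives were the test, scaling, filter, hormone limit, mixed, shallow and unfiltered barcodes, free RNA, the replicate block and each rat left out, and the deep, unmixed set, added after the data were seen. For free RNA, the share of each gene in T/NK cells of the library, times the UMIs of the class, was subtracted. This takes the whole T/NK profile as free RNA, so genes that T/NK cells transcribe were lowered too. Some genes of the lists are not reported here.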

Additional observations from a re-analysis of the deposited data

Results flagged for a closer look

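The Ttr levels of old and young rats lay in opposite order in 2 classes of islet cells, and neither difference was called (adjusted p = 0.251 in PP and 1.00 in beta cells by edgeR). In PP cells both old rats lay above both young rats, by 0.161 UMIs per 10000 between the group means. In beta cells both old rats lay below both young rats, by a difference of -0.0457. The difference between the classes was not tested. The PP values rest on 10 and 14 UMIs in the young and 21 and 100 in the old rats, and the beta values on 16 and 190 against 1 and 27.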

How the results depend on the processing

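The 26 log2 fold changes of the members (all but those of Gcg and Gc in beta cells, which were not recomputed) kept their direction and their side of the threshold under 369 of 403 alternatives, became called under 8 and changed sign under 26. All that changed sign were uncalled, and their cause was not tested. With library size alone Ttr in alpha cells became 0.0053 and in beta cells 0.40, and Gc in PP cells 0.13 (all HFHF-old against old), and Cryba2 in beta cells became -0.11 (old against young). Gc in alpha cells (HFHF-old against old) became -0.016 without mixed cells, -0.25 with free RNA subtracted and -0.072 in deep, unmixed cells. Gcg in PP cells (old against young) became 0.12 without mixed cells, 0.015 in deep, unmixed cells and -3.01 to 0.54 with 1 rat left out at a time (0.54 without young rat 2), and (HFHF-old against old) -1.51 to 1.46 (1.46 without old rat 2). In PP cells (old against young) 1 rat left out at a time gave -0.19 (without young rat 1) to 0.78 for Gc, -0.26 (without young rat 1, and -0.21 without old rat 2) to 0.87 for Rbp4 and -0.70 to 0.85 (without young rat 2, and 0.12 without old rat 1) for Cryba2. In beta cells (old against young) Cryba2 became -0.15 with free RNA subtracted and -0.16 (without young rat 1) to 0.81 with 1 rat left out, and Rbp4 -2.42 to 3.24 (without young rat 2). Ttr in beta cells (HFHF-old against old) became 0.58 without mixed cells, 0.063 with free RNA subtracted, 0.49 in deep, unmixed cells and -1.09 to 2.12 (without old rat 2) with 1 rat left out. Besides the calls given for Ttr in PP cells and for Cryba2 and Gcg in alpha cells, Rbp4 in beta cells (HFHF-old against old) became called without the filter on low counts (-3.57, adjusted p = 0.0251 by edgeR).

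Replicate numbers are shared by different rats, and differences between replicates 1 and 2 of the young and old groups correlated at r = 0.151 (alpha), 0.214 (PP) and -0.275 (beta) over genes, with 2 pairs only. With the replicate number as a block 64 and 15 genes were called in alpha cells (old against young, HFHF-old against old) in place of 2 and 4, and 0 and 0 in PP cells in place of 2 and 3. The block also turned Gcg in PP cells to 1.23 and Ttr in beta cells to 0.66 (HFHF-old against old) and Rbp4 in beta cells to 0.11 (old against young), and no member was called with it.

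Counts of called genes, in the order old against young and HFHF-old against old, were 23 and 30 in alpha, 9 and 15 in PP and 16 and 4 in beta cells by DESeq2, which left 12387 genes in alpha and 7655 in PP cells without an adjusted p in the second comparison. Without the filter on low counts they were 156 and 131, 90 and 113, and 73 and 34. With free RNA subtracted 0 were called in alpha and PP cells, where 5886 and 4303 genes could still be tested. That subtraction also lowered or removed genes that T/NK cells transcribe, so it is not a measure of free RNA alone. Library size alone gave 1 in alpha and 1 in PP cells (old against young). Without mixed cells there were 9 and 6 in PP and 11 and 3 in beta cells, without barcodes under 2000 UMIs 5 and 5 in PP cells, with all barcodes 20 in PP cells (HFHF-old against old), and in deep, unmixed cells 5 in alpha (old against young), 9 and 9 in PP and 16 and 3 in beta cells. Leaving out 1 rat at a time gave 2 to 119 and 8 to 75 in alpha, 2 to 126 and 24 to 170 in PP and 0 to 14 and 1 to 6 in beta cells, where a group of 1 rat is assumed to vary like the others. The median Spearman's coefficient with the Gcg share moved by more than the spread between rats under 13 of 32 alternatives. In alpha cells it stayed above 0 under each, and in PP cells Gc, Ttr and Cryba2 went to 0.01, 0.05 and 0.02 without shallow barcodes. HFHF-old rat 2, with 8 islet cells, limits every comparison with the diet.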
